A study of Mus musculus with 68 samples.

Results

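The effect of SPARC loss in the prostate of mice without the TRAMP transgene was examined on 21 Clariom S expression arrays out of 68 in the series. These were 11 arrays of mice lacking SPARC and 10 of wild-type mice, chosen by genotype label, animal code and age. All 21 animals carry the label TRAMP -/-, so neither group has the SV40 T antigens that the rat probasin promoter drives in prostate epithelium of TRAMP mice. The wild-type mice were 16 weeks old in the early group (4 arrays) and 24 weeks in the late group (6 arrays). The mice labelled SPARC-/- TRAMP -/- were 16 to 18 weeks old in the early group (7 arrays) and 25 to 27 weeks in the late group (4 arrays). Thus 10 of the 11 SPARC-null animals were older than every wild-type animal of their stage. The labels do not say how the Sparc allele was made, and they name the tissue prostate tumors for every animal, those without the transgene included. Array O12 carries the SPARC-null label with a code of the OPN-null animals, and it was left out.

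SPARC is a secreted, collagen-binding glycoprotein that acts at the cell surface and in the extracellular matrix. It binds procollagen and assists its processing and assembly into fibrils, and it changes how cells attach to matrix. In the prostate it is made mainly by stromal cells, while the luminal epithelium is a secretory tissue with a large load of protein folding in the endoplasmic reticulum.

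Values are the deposited log2 expression values, so a difference of 1 is a 2-fold change. Differences are SPARC-null minus wild type, taken as the mean of the early and late differences, and a probe set was called where limma's adjusted p was under 0.05. Every array is of a separate animal by its code, and p-values set a difference against the spread between animals. For limma's comparison of SPARC-null with wild type, the spread within groups was also estimated from 8 OPN-null animals without the transgene, described below. The exact permutation tests used the compared arrays alone. Because whole tissue was profiled, fewer cells of a type and less RNA per cell cannot be told apart.

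The luminal gene Pbsn (probasin) averaged 11.54 over the 21 arrays and Tgm4, a secreted transglutaminase of the prostate, 12.51. Both were well above the negative control probe sets, whose median was 5.34. Other luminal genes lay lower, with wild-type medians of 6.20 for Foxa1 and 6.32 for Mme. The neuroendocrine markers Chga at 6.15 and Syp at 6.37 lay near the array medians of 6.25 to 6.34. An index of array quality, the area under the curve (AUC) that separates positive from negative control probe sets, ran from 0.682 to 0.799. Late SPARC-null arrays had a higher AUC than late wild-type arrays by 0.0422 (2-sided exact permutation p = 0.0143, adjusted 0.0214), while the early difference was -0.00423 (exact permutation p = 0.879). The lowest values were 0.682 in the early SPARC-null array S1 and 0.698 in the late wild-type array B6, and the part of array quality in the differences below was not tested beyond the alternatives given.

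Sparc itself was lower in the SPARC-null prostates. The early wild-type values were 6.72, 6.79, 6.94 and 7.33, and the 7 early SPARC-null values had a lowest of 5.84, a median of 6.22 and a highest of 6.59. The 6 late wild-type values ran from 6.36 over a median of 6.99 to 7.56, and the late SPARC-null values were 5.73, 5.83, 6.27 and 6.32. The groups did not overlap within either age, and over both ages 10 of the 11 SPARC-null arrays lay below the lowest wild-type array. The difference was -0.80 ± 0.15 (SE), with a 2-sided exact permutation p of 5.77e-05 over 69300 splits within age, adjusted 0.000346. Within early it was -0.74 (exact permutation p = 0.00303) and within late -0.85 (exact permutation p = 0.00952), and the early p is the smallest that its 330 splits can give. Signal remained in the SPARC-null arrays, and the position of the probes relative to the deleted part of the gene was not known here. In the fit over all probe sets the adjusted p was 0.0287, and it rose to between 0.0524 and 0.086 when B8, B10, B11, S5 or S6 was left out.

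Few probe sets passed the adjusted threshold in the main fit, and the count changed with the setting. Other settings gave 0 with age in weeks, 668 without arrays of AUC under 0.7 and 2791 with 1 weight per array. In the main fit over both ages 50 of 22206 probe sets were called (0.225%), 39 higher (0.176%) and 11 lower (0.0495%) in SPARC-null prostate. Of these, 43 carry a gene symbol and 7 do not, 3 differed at least 2-fold, and the median size was 0.49. All 50 had the same sign in the early and the late comparison. They were chosen by the mean of these 2 differences, so the choice itself favoured an equal sign. At an unadjusted p under 0.05 there were 1279 higher (5.76%) and 1150 lower (5.18%), against 1110 in all that chance would give. The values of the 11 and 10 arrays did not overlap at all for 13 probe sets (0.0585%), of which 7 were among the 50. When ages were taken apart, 0 probe sets passed in the early comparison (0%), where the smallest adjusted p was 0.0514 and 1082 had an unadjusted p under 0.05. In the late comparison 7 passed (0.0315%), 3 higher and 4 lower, and 2952 had an unadjusted p under 0.05. The late difference minus the early one passed for 0 probe sets (0%), with 1339 at an unadjusted p under 0.05, so no called difference between the ages was found.

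The count of called probe sets depended on single arrays. Leaving out 1 array at a time gave from 6 (without S5) to 198 (without S1, the array of lowest quality). It moved by over 1.5-fold for 17 of the 21 arrays and stayed within that range only without B1, B3, B5 or S8. All 50 kept their direction in all 21 of these fits, which share most arrays with the fit that chose them. Of the 50, 5 kept their call in all of these fits, and 26 kept it in fewer than 11. With age in weeks in the model 0 probe sets were called, and age in weeks and genotype can hardly be told apart in these animals, since 1 SPARC-null array, S1, shares an age with wild type.

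**Figure D1:**
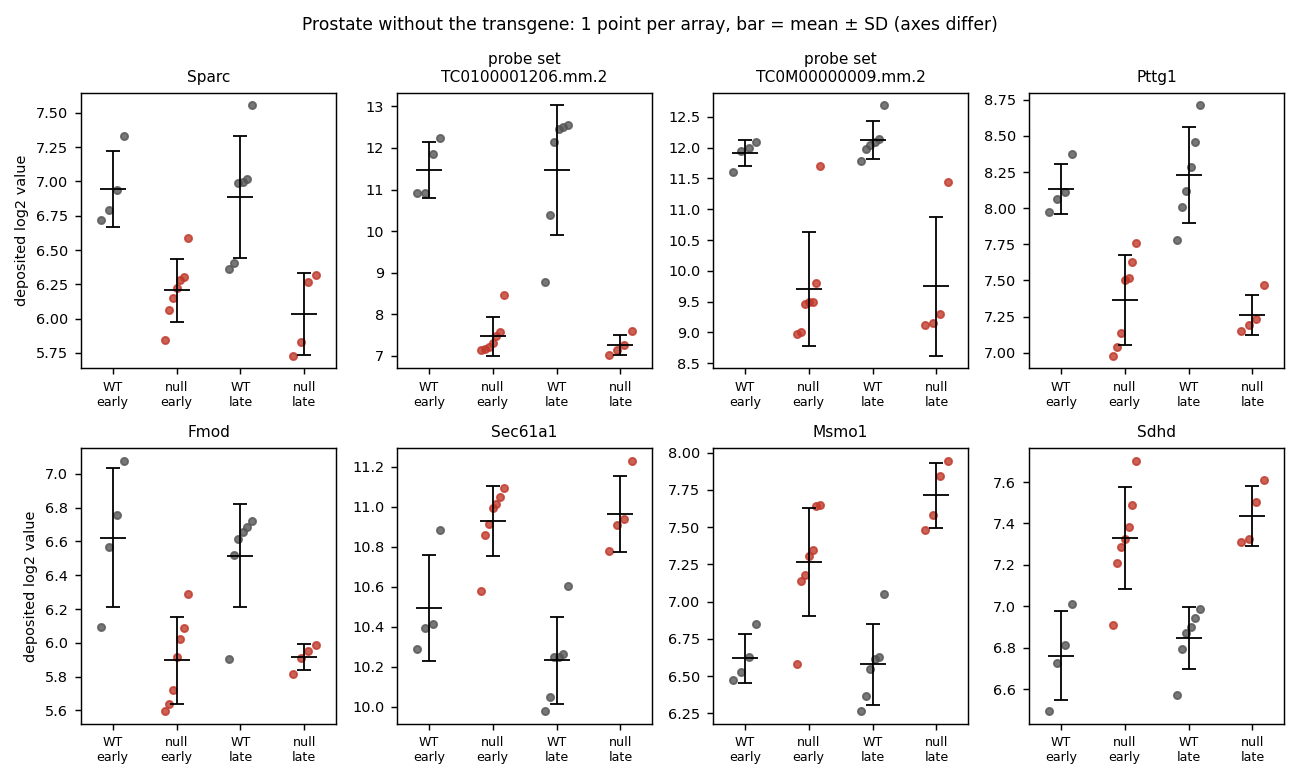
Deposited log2 values of Sparc, 2 unnamed probe sets and 5 called genes in early and late wild-type (grey) and SPARC-null (red) prostate without the transgene; each point is 1 array, the bar shows the mean ± SD, and the axes differ between panels. Sparc, both unnamed probe sets, Pttg1 and Fmod sit lower in the SPARC-null arrays, with S11 within the wild-type range of TC0M00000009.mm.2 and S6 just below it, while Sec61a1, Msmo1 and Sdhd sit higher.

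The 2 largest differences belonged to probe sets for which the platform's table gives no gene, and they were singled out after their values were seen. Probe set TC0100001206.mm.2 was 17.3-fold lower in SPARC-null prostate, at -4.11 ± 0.49 (SE, adjusted p = 7.9e-05). The 4 late SPARC-null values were 7.03, 7.14, 7.27 and 7.59 and the early ones ran from 7.13 over 7.30 to 8.46. The wild-type values were 10.91, 10.91, 11.85 and 12.24 early and ran from 8.77 over a median of 12.30 to 12.55 late. Every SPARC-null array lay below every wild-type array, and the late wild-type arrays B2 at 8.77 and B4 at 10.40 lay below the other 4 of their group, which were at 12.15 or higher. Low values also occurred outside SPARC-null animals, down to 7.28 in late TRAMP and 7.80 in early OPN-null prostate.

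Probe set TC0M00000009.mm.2 was 4.88-fold lower, at -2.29 ± 0.28 (SE, adjusted p = 7.9e-05). The late SPARC-null values were 9.13, 9.15, 9.29 and 11.44, and the early ones ran from 8.97 over 9.49 to 11.70. Wild-type values were 11.61 to 12.09 in the 4 early arrays and 11.79 to 12.69 in the late ones, with a median of 12.07. Thus 9 SPARC-null arrays were low, while S11 at 11.70 lay within the wild-type range and S6 at 11.44 just below it. Both of these arrays were low for TC0100001206.mm.2, at 7.47 and 7.14. The other 8 probe sets whose identifiers begin with TC0M were not called, with differences from -0.51 to -0.10. Both probe sets kept their call without any 1 of the 21 arrays.

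Pttg1, which encodes securin, the inhibitor of separase that holds sister chromatids together until anaphase, was the named gene with the smallest p. Wild-type values were 7.97, 8.07, 8.11 and 8.38 early and 7.78 to 8.71 late with a median of 8.20. SPARC-null values were 6.98 to 7.76 early with a median of 7.50, and 7.15, 7.19, 7.23 and 7.47 late. The ranges did not overlap over the 21 arrays, the difference was -0.87 ± 0.11 (SE, adjusted p = 0.000231), and the call held without any 1 array. In the cell cycle list 0 of 22 measured genes were called, 7 differed upward and 15 downward, and the median was -0.04 against -0.03 over all probe sets. The median turned to 0.04 with age in weeks in the model, and 4 genes of the list were called lower with 1 weight per array.

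Pttg1 lies on the chromosome of Sparc in the reference gene table's order, with 146 measured genes between them. Of the 42 called genes other than Sparc with a place in that table, 7 (16.7%), Pttg1 included, lie on this chromosome, which holds 7.56% of the measured genes. The one closest to Sparc was Slc22a5, a carnitine transporter, 22 measured genes away, at 0.37 and with ranges that did not overlap. Inpp5k, an inositol phosphatase, was 358 genes away at 0.40. The others were Chrne, Spag7, Sdf2 and Wbp2, 247 to 998 genes away. Without 1 array the call of Slc22a5 held in 15 and that of Inpp5k in 6 of 21 fits. Of the 10 measured genes on each side of Sparc 5 had an unadjusted p under 0.05, 3 of them higher, and the median difference was -0.04. Over all 22206 probe sets 2429 had such a p. None of these neighbours was called, against 0.225% of all probe sets, a share too small to show in so few genes. Of the 7 called genes on this chromosome, Inpp5k was at 0.31 in the TRAMP animals described below (limma's unadjusted p = 0.00152). The rest had an unadjusted p of 0.142 to 0.931 there, with Slc22a5 at 0.005.

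Among matrix genes the called change was in Fmod, which encodes fibromodulin, a small leucine-rich proteoglycan that binds collagen and regulates fibril growth. Its wild-type values were 6.10, 6.57, 6.75 and 7.08 early and 5.91 to 6.72 late with a median of 6.63. Its SPARC-null values were 5.60 to 6.29 early with a median of 5.91, and 5.81, 5.91, 5.95 and 5.99 late. The ranges overlapped through early B11 at 6.10 and late B6 at 5.91. The difference was -0.66 ± 0.12 (SE, adjusted p = 0.0239), and the adjusted p rose to between 0.0511 and 0.0593 without B8, B10, S3 or S5. In the list of collagen processing and fibril assembly Fmod was the 1 gene called of 27 measured, 14 differed upward and 13 downward, and the median was 0.01 (-0.04 with array quality as a covariate). Serpinh1, the collagen chaperone, was at 0.31 and Dcn, which encodes decorin, at 0.11, and neither was called.

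The collagens and the relatives of SPARC were not called. Of 11 measured fibrillar collagen genes 9 differed downward and 2 upward, with a median of -0.08 and a range from -0.19 to 0.07. The median turned to 0.02 with age in weeks, with 7 genes upward, and with array quality as a covariate it was -0.02, with 5 upward. Col1a1 was at -0.19 and Col3a1 at -0.16, each with an unadjusted p over 0.05. Of 23 measured matricellular genes 18 differed downward, the median was -0.08 and 0 were called. Sparcl1, the closest relative of SPARC, was at 0.18, Tnxb (tenascin X) at -0.19 and Thbs1 (thrombospondin 1) at 0.31. The list of proteases and inhibitors of the matrix held 24 measured genes with 0 called and a median of -0.02, and 23 basement membrane genes had a median of 0.01. Mmp7, a protease made by glandular epithelium, was at 1.51 ± 0.61 (SE, unadjusted p = 0.019, adjusted p = 0.341).

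The called rises were under 2-fold apart from 1, the unnamed probe set TC0900000458.mm.2, at 1.11 ± 0.20 (SE, adjusted p = 0.0216) and with ranges that did not overlap, which was chosen after its values were seen. Sec61a1 encodes the channel through which secreted proteins enter the endoplasmic reticulum. It stood at 10.29, 10.39, 10.41 and 10.88 in early wild type, at 9.98 to 10.60 with a median of 10.25 in late wild type, at 10.58 to 11.09 with a median of 10.99 in early SPARC-null and at 10.78, 10.91, 10.94 and 11.23 in late SPARC-null prostate. The late groups did not overlap, while early B11 at 10.88 lay within the SPARC-null range. The difference was 0.58 ± 0.09 (SE, adjusted p = 0.00658) and was called without any 1 array.

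Msmo1 encodes a demethylase of cholesterol synthesis. Its values were 6.47, 6.53, 6.63 and 6.85 in early and 6.26 to 7.05 in late wild type, against 6.58 to 7.65 with a median of 7.30 in early and 7.48, 7.58, 7.84 and 7.94 in late SPARC-null prostate. All SPARC-null arrays apart from S1 lay above every wild-type array. The difference was 0.89 ± 0.15 (SE, adjusted p = 0.00983), also called without any 1 array. It was the 1 called gene of 15 measured in the cholesterol synthesis list, whose median was 0.07, and Insig1, a sterol-regulated brake on the pathway, was at 0.50 (unadjusted p = 0.00145, adjusted p = 0.164).

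Sdhd, which encodes a membrane anchor subunit of succinate dehydrogenase, was higher by 0.58 ± 0.11 (SE, adjusted p = 0.0216). It ran from 6.49 to 7.01 in wild type and from 6.91 to 7.70 in SPARC-null prostate, with 10 of 11 SPARC-null arrays above the highest wild-type array, and its adjusted p was 0.0504 without S3. In the oxidative phosphorylation list it was the 1 called gene of 21 measured, where 15 differed upward and 6 had an unadjusted p under 0.05, all upward. The list's median was 0.15, with 0.03 early and 0.33 late. This direction did not hold in 2 alternatives. With array quality as a covariate 9 genes differed upward and 12 downward, the median was -0.01, and 1 gene was called higher and 4 lower. With age in weeks the median was -0.09, again with 9 upward and 12 downward, and with 1 weight per array 6 genes were called, all higher. Sdha, the flavoprotein subunit of the same enzyme, was at 0.54 and Atp5a1, a subunit of ATP synthase, at 0.50, and neither was called.

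Other called rises came from genes of several functions, and no test of a common theme was made. Amt, a part of the mitochondrial glycine cleavage system, rose by 0.93 ± 0.19 (SE, adjusted p = 0.031). Oat, ornithine aminotransferase of mitochondria, rose by 0.66, and Acadl, which oxidises long-chain fatty acids, by 0.63. Slc25a16, a mitochondrial carrier, rose by 0.49 and Mrpl50, a protein of the mitochondrial ribosome, by 0.44. Dnajb2, a co-chaperone, rose by 0.59 with ranges that did not overlap, and Sdf2, a protein of the endoplasmic reticulum, by 0.67. Creb3l2, a transcription factor anchored in that membrane, rose by 0.40. These calls were lost in part of the 21 fits without 1 array. The call of Creb3l2 held in 4, that of Acadl in 8, of Mrpl50 in 9 and of Sdf2 in 10 of them. Those of Amt, Oat and Dnajb2 held in 12 each and that of Slc25a16 in 17. The differences changed less: that of Creb3l2 ran from 0.35 to 0.44 and that of Dnajb2 from 0.54 to 0.65.

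At the cell surface Bsg (basigin, which partners lactate transporters) rose by 0.65 ± 0.12 (SE, adjusted p = 0.0273). Its wild-type arrays ran from 6.25 to 7.25 and its SPARC-null arrays from 7.37 to 7.85, with no overlap. Aph1a, a subunit of gamma-secretase, rose by 0.61 ± 0.11 (SE, adjusted p = 0.0239), with late wild-type values of 7.14 to 8.13 and late SPARC-null values of 8.42, 8.58, 8.62 and 8.92. Over both ages the ranges of Aph1a overlapped, and 6 of the 11 SPARC-null arrays lay above the highest wild-type array, at 8.56. The call of Aph1a was lost without B10 or S5 (adjusted p 0.0664 and 0.086), and that of Bsg without B10, S2, S3 or S5 (adjusted p 0.053 to 0.0664). Capns1, the small subunit of calpains, rose by 0.67 and Anapc16, a subunit of the anaphase-promoting complex, by 0.67, and these calls held in 14 and 15 of the 21 fits without 1 array.

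Chrna3, a subunit of the nicotinic receptor of autonomic ganglia, differed by 0.89 ± 0.18 (SE, adjusted p = 0.031). Its late SPARC-null values were 6.74, 7.17, 7.54 and 8.20, all above the late wild-type range of 5.70 to 6.68, while the early values of 5.83 to 6.86 overlapped the wild-type ones of 5.44, 5.54, 5.92 and 6.67. The late difference of 1.42 was called (adjusted p = 0.0341) and the early one of 0.35 was not, but the difference between the ages was not called either. The call over both ages held in 10 of the 21 fits without 1 array. In the list of autonomic neurons and glia 0 of 10 measured genes were called and 5 differed upward, with a median of -0.01.

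Besides Pttg1, Sparc and Fmod, the named genes called lower were Csf2rb at -0.48, Defb14 at -0.47, Chrne at -0.42, Fam151a at -0.39 and Msh4 at -0.35. Csf2rb encodes the shared receptor subunit for several haematopoietic cytokines, Defb14 a beta-defensin, Chrne a subunit of the muscle nicotinic receptor and Msh4 a meiotic recombination protein. Their adjusted p-values ran from 0.031 to 0.0493. Defb14 and Msh4 averaged 3.67 and 4.18, below the negative control median. Csf2rb was at 7.67 to 8.02 in the 4 early wild-type arrays and at 6.82 to 7.54 in early SPARC-null prostate, without overlap, and late B6 at 7.43 lay within the late SPARC-null range of 7.31 to 7.60. Of the 21 fits without 1 array, the calls of Csf2rb and Defb14 held in 10 each, that of Fam151a in 7, of Chrne in 4 and of Msh4 in 3.

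Most genes of the unfolded protein response differed upward, and none was called. This response raises chaperones and degradation factors when unfolded proteins gather in the endoplasmic reticulum, and its factors ATF6 and XBP1 act through a promoter element, the ER stress response element, whose letters are CCAAT, any 9 bases and CCACG. The element was looked for on both strands of promoters of 300 bases, from 250 before to 50 after the start, taken from RefSeq (GRCm38.p6). It occurred in 39 of 32851 promoters (0.119%), which belong to 37 of 27025 genes (0.137%), in 7 of the 15 list genes that have an entry, and in 0 of 38 called genes that have one. Promoters of 3 list members that hold it are shown to place the element in the genes described next, with its fixed letters in capitals, on the strand of the gene. In Calr the letters read on the other strand. Hspa5 (chr2:34771840-34772139, plus strand) encodes the chaperone BiP, Calr (chr8:84846882-84847181, minus strand) the lectin chaperone calreticulin and Pdia6 (chr12:17266339-17266638, plus strand) a disulphide isomerase.
Hspa5: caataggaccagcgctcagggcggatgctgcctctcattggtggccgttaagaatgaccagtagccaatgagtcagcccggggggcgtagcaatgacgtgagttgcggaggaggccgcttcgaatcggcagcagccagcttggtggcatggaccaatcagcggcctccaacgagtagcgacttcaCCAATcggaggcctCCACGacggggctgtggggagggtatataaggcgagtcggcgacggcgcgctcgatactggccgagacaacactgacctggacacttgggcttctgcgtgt
Calr: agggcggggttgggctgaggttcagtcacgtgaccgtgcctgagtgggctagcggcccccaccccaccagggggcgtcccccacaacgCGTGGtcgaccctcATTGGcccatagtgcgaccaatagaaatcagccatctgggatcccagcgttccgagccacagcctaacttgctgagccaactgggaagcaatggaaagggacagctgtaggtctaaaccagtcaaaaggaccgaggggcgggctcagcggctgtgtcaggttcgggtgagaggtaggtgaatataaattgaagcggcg
Pdia6: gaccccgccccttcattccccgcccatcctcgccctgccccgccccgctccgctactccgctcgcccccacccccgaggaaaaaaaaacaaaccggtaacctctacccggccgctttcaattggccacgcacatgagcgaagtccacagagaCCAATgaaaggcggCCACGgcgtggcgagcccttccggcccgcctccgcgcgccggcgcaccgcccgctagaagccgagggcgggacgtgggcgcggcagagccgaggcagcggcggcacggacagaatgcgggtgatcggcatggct

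Of 17 measured genes of this list 15 differed upward and 2 downward, against 42.9% upward over all target probe sets. The median was 0.62, with 0.51 early and 0.74 late, and 9 had an unadjusted p under 0.05, all upward. Hspa5 was at 1.04 ± 0.37 (SE, unadjusted p = 0.00789, adjusted p = 0.257), Edem1, which helps degrade misfolded glycoproteins, at 0.80 (adjusted p = 0.111), Calr at 0.68 (adjusted p = 0.18) and Pdia6 at 0.62 (adjusted p = 0.211). Calr was at 7.98, 8.23, 8.34 and 8.63 in early wild type against 8.32 to 9.77 in early SPARC-null prostate, and at 7.76 to 8.49 in late wild type against 8.26, 8.77, 8.87 and 8.97. Its groups overlapped at both ages, and 9 of 11 SPARC-null arrays lay above every wild-type array. Xbp1 at -0.06 and Atf4 at -0.07, transcription factors of the response, were the 2 members that differed downward.

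Array quality moved with this list. The list level per array, its members' mean after centring each over the 21 arrays, was lowest in B6 at -1.39 and S1 at -1.03, the arrays with the lowest AUC. With AUC as a covariate 11 of 17 genes differed upward, 6 with an unadjusted p under 0.05 upward and 3 downward, and the median was 0.18. Without arrays of AUC under 0.7 the median was 0.62 and 5 genes were called, and with 1 weight per array 10 were called. In the fit with age in weeks the median was 0.10, and without S1 alone 2 genes were called. Of 10 measured heat shock genes, which act in the cytosol and mitochondria, 8 differed upward, with a median of 0.30 and 0 called. Their median turned to -0.05 with age in weeks, with 3 upward, and was 0.08 with array quality as a covariate, with all 10 upward, while 5 were called higher with 1 weight per array.

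**Figure D2:**
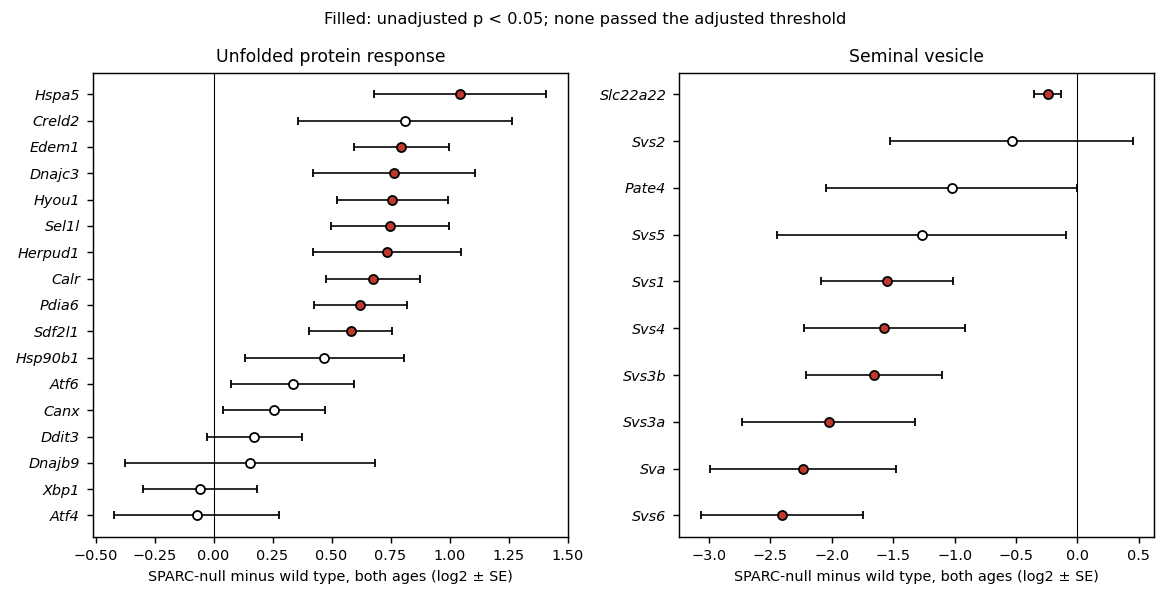
Differences between SPARC-null and wild-type prostate over both ages (log2, with the SE of the fit) for each measured gene of the unfolded protein response (left) and of the seminal vesicle list (right); filled points have an unadjusted p under 0.05. In the unfolded protein response 15 of 17 points lie above 0, all 10 seminal vesicle genes lie below 0, and none passed the adjusted threshold.

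**Figure D3:**
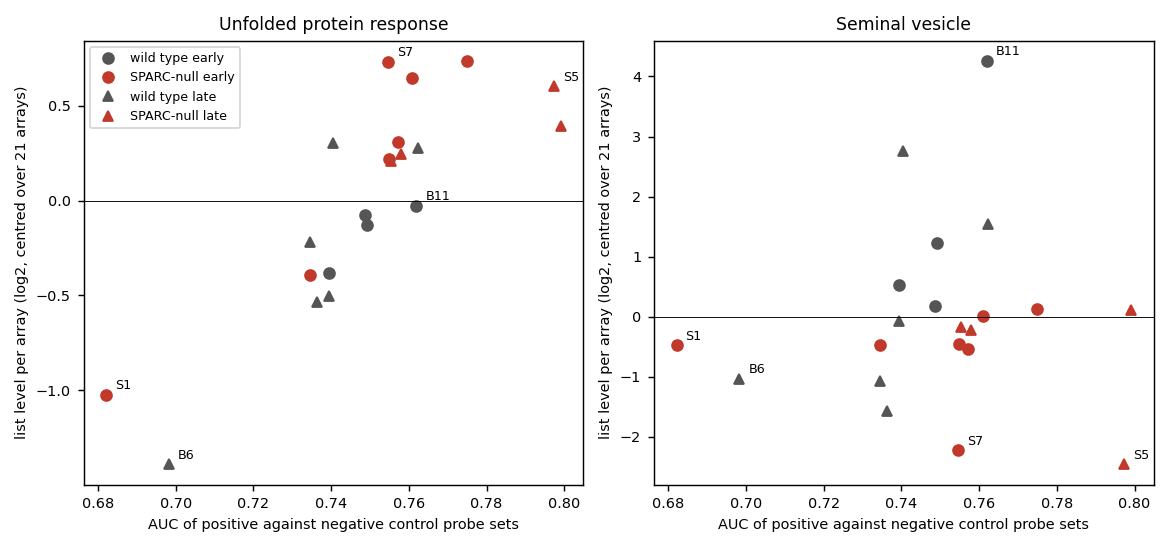
List level per array (log2, centred over the 21 arrays) against the AUC of control probe sets for the unfolded protein response (left) and the seminal vesicle list (right); circles are early, triangles late, grey wild type and red SPARC-null. S1 and B6, with an AUC of 0.682 and 0.698, have the 2 lowest levels of the unfolded protein response, and B11 has the highest seminal vesicle level.

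Secretory genes of the seminal vesicle, a gland next to the prostate, differed downward. All 10 measured genes were lower, with a median of -1.56 (-2.16 in the early comparison), 7 had an unadjusted p under 0.05 and 0 were called. With 1 weight per array the median was -0.98 and 2 genes were called lower, while 1 was called once AUC entered as a covariate and 1 once the arrays of AUC under 0.7 were left out. With age in weeks 1 gene had an unadjusted p under 0.05 and 9 of 10 were lower. Svs6, a seminal vesicle secretory protein, was at 5.87, 6.17, 7.88 and 12.51 in early wild type and at 4.22 to 5.23 in early SPARC-null prostate. In the late groups it was at 4.12 to 9.33 with a median of 5.02 in wild type and at 3.97 to 5.03 in the 4 SPARC-null arrays. All SPARC-null values of Svs6 and its late wild-type median lay below the negative control median of 5.34. The early groups did not overlap and the late ones did, and the wild-type level was set by few arrays: B11, B3, B5 and B13 had list levels of 4.26, 2.77, 1.54 and 1.23, while the highest SPARC-null list level was 0.12. In the late arrays the median list level was lower in wild type, at -0.55, than in SPARC-null prostate, at -0.20. With the seminal vesicle level as a covariate 17 probe sets were called, 16 of them among the 50. The part of seminal vesicle tissue in the called genes was not tested beyond this covariate.

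Most luminal and adhesion genes differed upward and none was called, but both statements changed with the model. Of 22 measured luminal and androgen-regulated genes 15 differed upward, with a median of 0.27 (-0.04 early and 0.68 late). Their median was 0.08 with array quality as a covariate and turned to -0.04 with age in weeks, with 10 upward, and with 1 weight per array 4 were called higher and 1 lower. Foxa1, a pioneer factor of luminal cells, was at 0.63 ± 0.15 (SE, adjusted p = 0.0946), with 6.06, 6.07, 6.24 and 6.80 in early wild type, 6.25 to 7.14 in early SPARC-null, 6.15 to 6.63 in late wild type and 6.35, 7.10, 7.44 and 7.67 in late SPARC-null prostate. Mme, a luminal surface peptidase, was at 0.74 (adjusted p = 0.228). Of 14 measured epithelial adhesion genes 13 differed upward with a median of 0.12, led by Cldn4, a tight junction claudin, at 0.51 (adjusted p = 0.159). With array quality as a covariate 5 of the adhesion genes differed upward and 9 downward (median -0.03), with age in weeks 7 and 7 (median -0.02), and with 1 weight per array 3 were called higher. The 12 basal genes had a median of -0.03, and the 16 neuroendocrine genes one of -0.04.

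Markers of the other cells in the tissue gave no call. The median was 0.36 for 14 skeletal muscle, 0.15 for 18 adipose, 0.14 for 12 fibroblast, 0.05 for 13 smooth muscle and -0.04 for 11 endothelial genes. It was -0.12 for 15 T and NK cell, -0.08 for 12 B and plasma cell, -0.07 for 14 macrophage and dendritic cell and 0.01 for 12 mast cell genes. The fibroblast median turned to -0.03 with array quality as a covariate, and with 1 weight per array 4 fibroblast genes were called higher and 1 lower. Apod, a lipocalin of fibroblasts, differed most among fibroblast markers, at 1.09 ± 0.34 (SE, adjusted p = 0.199). Of the 39 lists, those with a called member were collagen processing, cholesterol synthesis and oxidative phosphorylation, with 1 each.

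**Figure D4:**
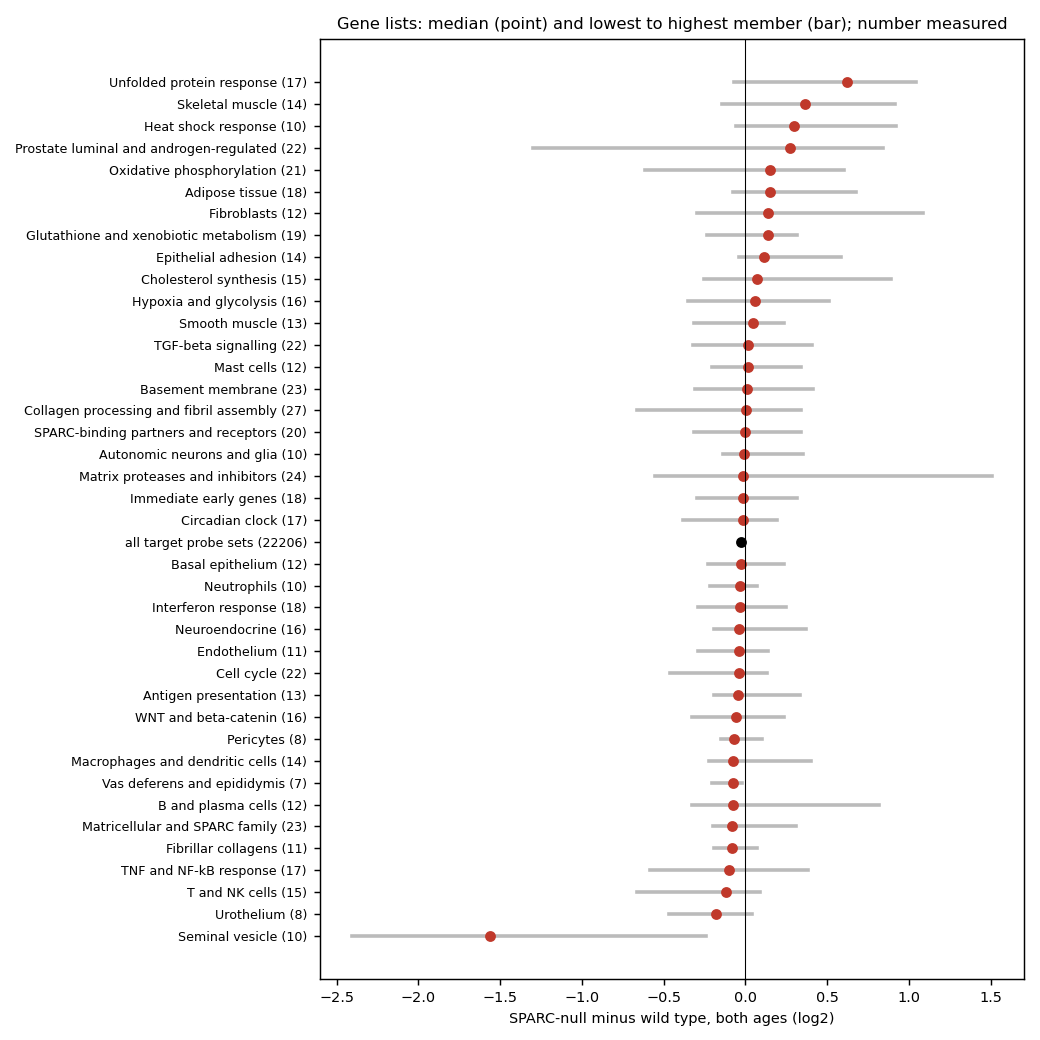
Median difference between SPARC-null and wild-type prostate over both ages (log2) for each of 39 gene lists (red point), with the lowest and the highest member as the ends of the bar and the number of measured genes in brackets; the black point is the median over all target probe sets. The unfolded protein response at 0.62 has the highest median and the seminal vesicle list at -1.56 the lowest.

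The same genotype was then read in TRAMP animals, which share no array with the comparison above. These were 15 SPARC-null TRAMP mice (6 early of 18 to 19 weeks, 9 late of 24 to 29) and 14 TRAMP mice (7 early of 16 weeks, 7 late of 24 to 25). SPARC-null TRAMP differed from TRAMP at 14 probe sets (0.063%), 9 higher and 5 lower, 3 of which are among the 50: TC0100001206.mm.2 at -3.42, TC0M00000009.mm.2 at -2.18 and Cep85, a centrosome protein, at 0.39, where it was at 0.47 without the transgene. With the arrays of these TRAMP animals alone 3 probe sets were called. All 15 SPARC-null TRAMP arrays were low for both unnamed probe sets, at 6.85 to 8.23 and 8.57 to 9.86. Of the 39 probe sets called higher without the transgene 33 were higher in TRAMP too, and of the 11 called lower all 11 were lower. Over all probe sets 58.0% had the same sign in both comparisons.

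The 50 probe sets were chosen by their difference without the transgene, and most values in TRAMP were smaller. Of the 50, 11 had the same sign and an unadjusted p under 0.05 in TRAMP, 7 higher and 4 lower, and 0 the opposite sign with such a p, against 7.22% of all probe sets with such a p. Fmod was at -0.31 (unadjusted p = 0.000753), Sparc at -0.30 (unadjusted p = 0.0065), Aph1a at 0.24 and Bsg at 0.23. Pttg1 was at -0.12 (unadjusted p = 0.195), Msmo1 at -0.04, Sec61a1 at 0.03 and Dnajb2 at 0.00. The median over the unfolded protein response was 0.07 and over the seminal vesicle list -0.08. The direct test of the effect without the transgene minus the effect in TRAMP called 0 probe sets (0%), with 1332 at an unadjusted p under 0.05. Its smallest adjusted p was 0.162, shared by Pttg1 and the unnamed probe set TC0900000458.mm.2. That probe set was at -0.16 in TRAMP and at 1.11 without the transgene.

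**Figure D5:**
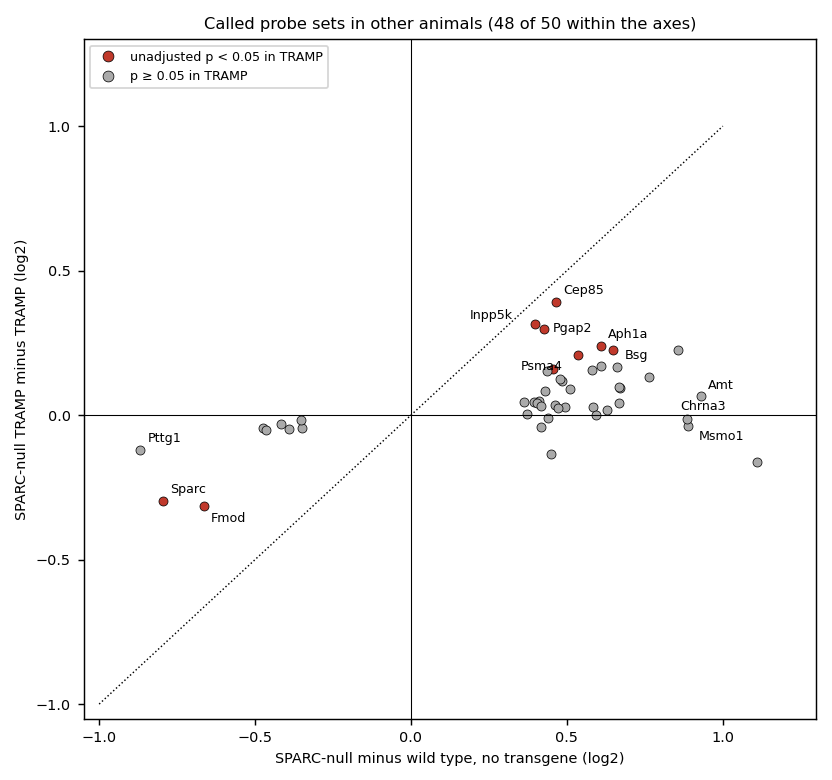
Difference between SPARC-null and wild type without the transgene (x axis, log2) against that between SPARC-null TRAMP and TRAMP (y axis, log2) for 48 of the 50 called probe sets; the 2 unnamed ones beyond the axes are at -4.11 and -2.29 on x. Red points have an unadjusted p under 0.05 in TRAMP, the dotted line marks equal differences, and most points lie between it and 0, such as Fmod at -0.66 and -0.31.

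Against the other knockout without the transgene, 8 OPN-null animals (5 of 16 to 17 weeks, 3 of 24 weeks), SPARC-null prostate differed at 2652 probe sets (11.9%), 1039 higher and 1613 lower. This comparison shares the SPARC-null arrays with the one against wild type, so only the values are set side by side. Sparc was at -0.84, TC0100001206.mm.2 at -3.85, TC0M00000009.mm.2 at -1.99 and Pttg1 at -0.69 against OPN-null. Fmod was at -0.50, Msmo1 at 0.94, Sec61a1 at 0.45 and Sdhd at 0.69. Each of these was called there, but they were chosen with the same SPARC-null arrays, so these calls are no separate support. Chrna3 at 0.54 and Defb14 at -0.13 were not called. The count fell to 440 without the late OPN-null array O2, to 36 without arrays of low quality and to 7 with age in weeks. It rose to 5601 without S1.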

How the data were processed

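The authors ran Clariom S arrays on total RNA of each animal and deposited log2 values. RMA in the oligo package made them, per the submitters' processing notes, which name no version. RMA forces array distributions together, so differences are relative, and large ones at low signal are compressed. Columns were matched to animals by sample identifier, and 0 were left unused. Of 29129 probe sets 6923 controls stayed out, and 22206 were tested with no filter. The platform's annotation gave 1 symbol for 19572 and none for 2634, and the build of its probe positions was not known here.

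The 29 arrays without the transgene (6 groups, O12 left out) were fitted with limma 3.58.1 in R 4.3.3 (lmFit, eBayes, 1 mean per group). The OPN-null arrays entered the estimate of the spread. The comparison within TRAMP and the difference from TRAMP were fitted on 67 arrays with a weight per transgene status (1.11 transgenic, 0.87 not). Adjustment was by Benjamini and Hochberg's method over all tested probe sets, and those of the exact permutation tests over the 6 tests made. The fit was tested on simulated data.

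The compared animals, gene lists and tests were chosen with earlier results of these data known. Named were Sparc, the 12 largest called rises and falls, the called or 2 leading members of each list, and the largest called differences of the other comparisons. Other genes were named after their values were seen, among them the unnamed probe sets, Hspa5, Pdia6 and further called or list genes. Where a gene has several probe sets, the brightest stands for it. Alternatives were another model or weighting, covariates (age in weeks, array quality, seminal vesicle and skeletal muscle level), filters, scaling, O12 as labelled, and each array left out. The number of arrays limits the precision.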

Additional observations from a re-analysis of the deposited data

Results flagged for a closer look

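Within the 4 groups, 27 results (Sparc, the called genes named, array quality and the 2 list levels shown by array) were searched for an array far from the rest of its group. Of 108 groups 9 held one, and chance gives about 1 in 20, or 5.4. For TC0100001206.mm.2 the early SPARC-null array S1 stood at 8.46, with the next at 7.57. For TC0M00000009.mm.2 the early SPARC-null array S11 stood at 11.7 against 9.81 for the next, and the late array S6 at 11.44 against 9.29. The late wild-type array B6, whose AUC was 0.698, was the lowest for Aph1a at 7.14, for Fmod at 5.91 and for Capns1 at 6.12. The late wild-type array B2 was the highest for Chrna3 at 6.68. The seminal vesicle list level was -2.22 in the early SPARC-null array S7 and -2.46 in the late array S5, with the next at -0.53 and -0.23.

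Array O12, labelled SPARC-null but coded like the OPN-null animals, lies outside the comparisons. Its Sparc value was 7.24, above the highest SPARC-null value of 6.59. Its values for TC0100001206.mm.2 and TC0M00000009.mm.2 were 12.36 and 11.76, both within the wild-type range.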

How the results depend on the processing

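Sparc kept its direction and an exact p under 0.05 in all 23 alternatives, from -0.85 to -0.73 without 1 array. The 50 called probe sets over both ages became 2791 with 1 weight per array, 668 without arrays of low quality, 231 with array quality as a covariate, 30 after repeated quantile normalization, 17 with the seminal vesicle level, 16 with the skeletal muscle level, 0 with age in weeks and 7 without S6 and S11 (chosen after seeing the data), and 6 to 198 without 1 array. The cause of these shifts was not tested. Of the 50, all remained called with 1 weight per array and without arrays of low quality, and 49 with array quality as a covariate. With the compared arrays alone 43 probe sets were called, 33 of them among the 50. In an additive model of genotype and age stage 47 were called, 34 of them among the 50.

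The early count of 0 became 1 with the compared arrays alone, 198 with 1 weight per array, 5 with array quality, 18 without arrays of low quality, 2 without dim probe sets, 1 without S6 and S11 and 0 to 3 without 1 array. The late count of 7 became 2, 1355, 0 and 96 in the first 4 of these settings, 0 with age in weeks, 4 with the seminal vesicle level and after quantile normalization, 3 with O12 as labelled, 2 without S6 and S11 and 0 to 14 without 1 array. The late minus early count was 0 in all 34 alternatives. The count for the effect without the transgene minus that in TRAMP, 0, became 205 with 1 weight per array, 1 with age in weeks, 10 with array quality, 12 without arrays of low quality and 0 to 1 without 1 array.

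The count of 14 within TRAMP, a comparison added after seeing the data, became 3 with the compared arrays alone and in the additive model, 44 with age in weeks, 46 with array quality, 9 without arrays of low quality and 7 to 17 without 1 array. The 2652 against OPN-null became 176 in the additive model, 8327 with 1 weight per array, 7 with age in weeks, 123 with array quality, 36 without arrays of low quality, 681 without S6 and S11 and 440 to 5601 without 1 array. The AUC difference of 0.0190 ran from 0.0153 to 0.0243 without 1 array, and its exact p passed 0.05 without S1. Of 3770 values of single named genes under the alternatives, 0 reversed a called direction, 275 lost a call and 92 gained one.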
